A study of Homo sapiens with 6 samples.

Results

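The p53 pathway was followed through 31 of its genes in 67R cells, a derivative of the lung adenocarcinoma line NCI-H1975 selected for resistance to the EGFR inhibitor ASK120067 through stepwise dose escalation. The 31 genes were taken by name from a table of 60664 genes, and 28 of them had a mean of at least 1 TPM (a transcript abundance corrected for gene length and library size) over the 6 libraries. The libraries fall into 2 groups, 3 that received control siRNA (siNC) and 3 that received siRNA against BCAT1 (siBCAT1), both by lipid transfection. BCAT1 is the cytosolic transaminase of branched-chain amino acids, and the comparison asks what changes in the resistant cells when BCAT1 is lowered. Both groups come from the same EGFR-mutant resistant line, and whether the sequenced cells were a single clone is not given in the sources used here. TPM values hold no total depth. No counting error can be given for them, and the study's methods speak of independent experiments in general but do not say whether the libraries of a group came from separate cultures. If they did not, p-values measure the spread between libraries, which may be technical. Where 3 values are given for a group, they stand in the order of replicates 1, 2 and 3, and a change from one mean to another runs from siNC to siBCAT1.

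p53 is a transcription factor that DNA damage and other stress stabilize, and it switches on genes that halt the cell cycle, repair DNA, set off apoptosis and, through the ubiquitin ligase MDM2, bring p53 itself down again. Many genes counted as p53 targets also answer to other factors, so a change in their RNA need not run through p53.

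BCAT1 itself fell from 38.2 ± 7.33 TPM (SD, n = 3) in siNC to 7.96 ± 0.841 TPM (SD, n = 3) in siBCAT1 cells (log2 fold change -2.12, limma adjusted p = 0.000272). Epithelial keratins marked all 6 libraries, and the 5 epithelial markers summed to 2460 to 2860 TPM in siNC and 1610 to 1900 TPM in siBCAT1 libraries. The keratins KRT7, KRT8 and KRT18 made up most of this sum and were called lower in siBCAT1 cells. CDH1 fell from 19.7 ± 8.34 to 3.1 ± 1.95 TPM (SD, n = 3 each; log2 fold change -2.41, limma adjusted p = 0.00881). EPCAM went the other way, from 1.27 ± 0.327 to 2.33 ± 0.334 TPM (SD, n = 3 each), and was not called. The lung adenocarcinoma markers NKX2-1, NAPSA and SFTPB together stayed at or under 0.42 TPM in every library. Of the markers of other cell types, CD3E, LUM and DCN were listed at 0 throughout. The 5 immune markers, of which CD68 made up most, summed to 31 to 40.7 TPM in siNC and 54.3 to 61.6 TPM in siBCAT1 libraries, the 4 endothelial markers to 0.79 to 0.96 and 1.04 to 2.69 TPM, and the 5 fibroblast markers to 252 to 274 and 189 to 244 TPM. Mitochondrial transcripts took 10.2% to 10.4% of the TPM in siNC and 9.33% to 10.2% in siBCAT1 libraries. The first principal component (39.9% of the variance) separated the groups, and both replicate 3 libraries stood apart from the others on the next one. The part of these shifts in the results below was not tested.

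Among the p53-pathway genes, 12 of the 28 tested fell and 2 rose in siBCAT1 cells, with an adjusted p under 0.05 from limma with Benjamini-Hochberg adjustment over all 14286 genes tested. Over all genes tested, 27.1% were called, 10.4% lower and 16.7% higher, and 14 of the 28 members. The members thus had a share of lower calls of 42.9% and of higher calls of 7.14%, and they were chosen with earlier results of these data known. The 12 include TP53INP1, which reached the mean of 1 TPM only through the siNC libraries, where it was high, so its fall is tied to how it entered the test. Their median log2 fold change, on the scale of log2(TPM + 1), was -0.34, against 0.04 for all genes tested. The groups did not overlap for 16 of the 28, 14 of them lower in siBCAT1 cells, and this held for 44.1% of all genes tested, 18.0% in the lower direction. The genes that fell were CDKN1A, CDKN1B, TP53I3, TP53INP1, PLK2, DDB2, FAS, GADD45B, BTG1, CCNG1, TNFRSF10B and POLH, and those that rose were XPC and PERP. With each library left out in turn, the count of lower members lay between 8 and 10. In bulk libraries, fewer cells that express a gene and less of its RNA per cell cannot be told apart.

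**Figure D1:**
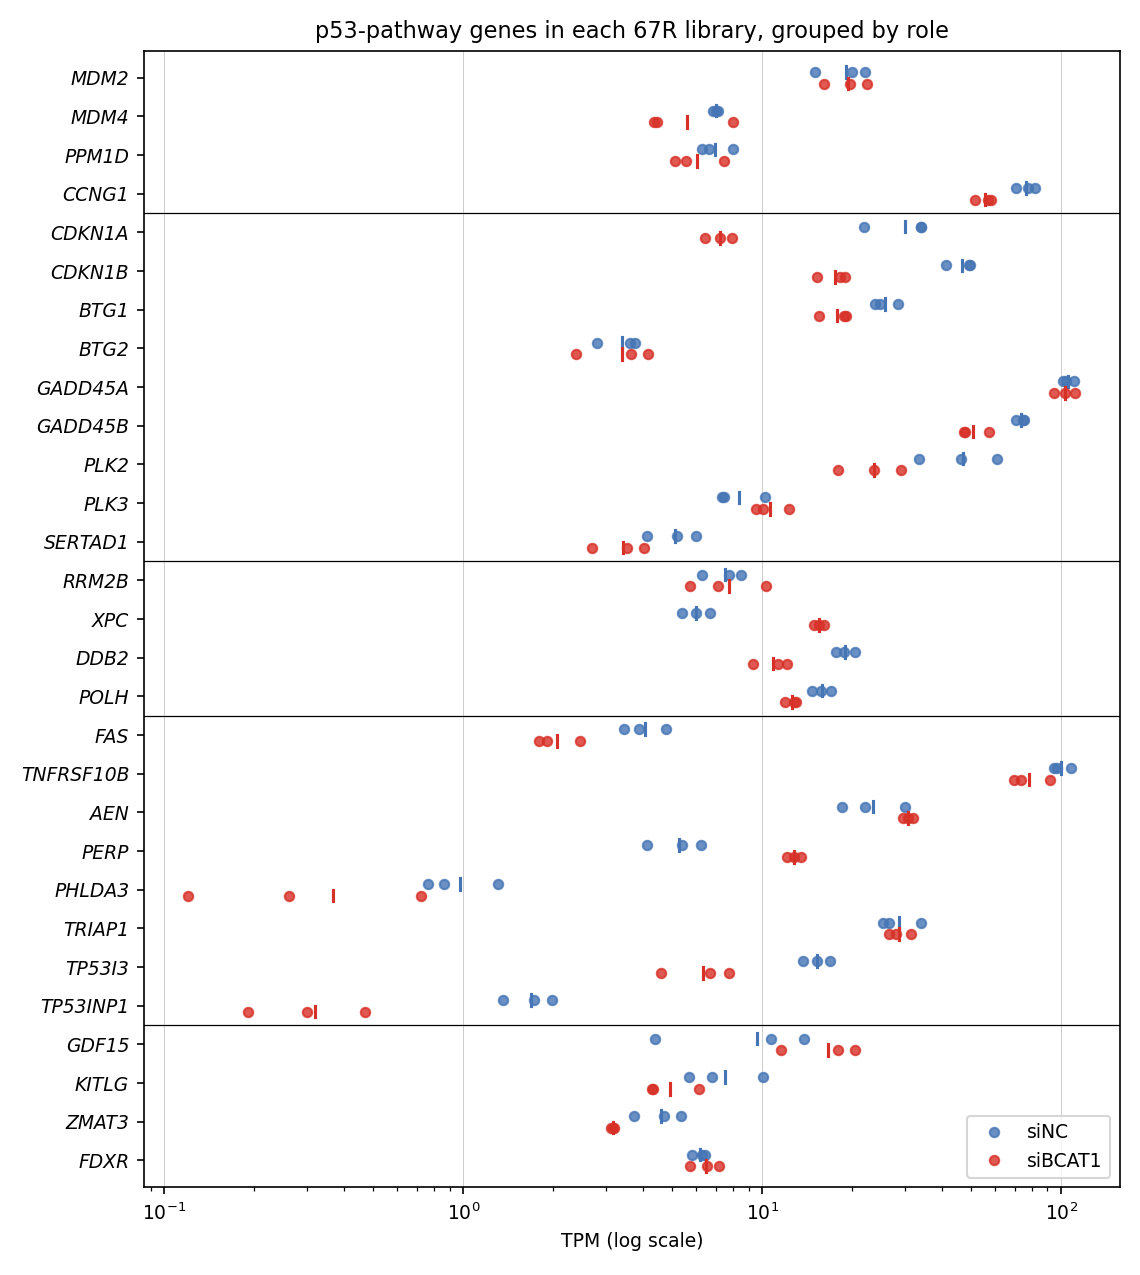
TPM of 29 p53-pathway genes (log axis) in each library, with siNC libraries in blue, siBCAT1 libraries in red and a vertical bar at each group's mean; horizontal lines separate the roles, and EDA2R and SPATA18, listed at 0 throughout, are left out. The points of CDKN1A, CDKN1B, TP53I3 and TP53INP1 lie lower in every siBCAT1 library, and those of XPC and PERP higher.

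Of the 4 genes that feed back on p53, 1 fell (25.0%) and 3 were not called, where 10.4% of all genes tested were lower and 16.7% higher. MDM2, the ubiquitin ligase that marks p53 for destruction and a classic p53 target, measured 20.0, 22.1 and 14.98 TPM across the siNC libraries against 22.4, 19.6 and 16.1 TPM across the siBCAT1 libraries. The groups overlapped fully, the log2 fold change was 0.03 (SE 0.17, limma adjusted p = 0.919), and its sign turned under median-ratio scaling, under quantile normalization and under a correction for GC content and length. Its relative MDM4, which binds p53 and blocks its activity, measured 6.99, 7.13 and 6.86 TPM across the siNC libraries against 7.99, 4.44 and 4.33 TPM across the siBCAT1 libraries. The siBCAT1 libraries thus lay on both sides of the siNC libraries, and the log2 fold change of -0.32 did not exceed their spread (limma adjusted p = 0.292); without siBCAT1 replicate 1 it was -0.57, with an adjusted p of 0.0286. Without siBCAT1 replicate 2 or 3 it was -0.21 or -0.19, with adjusted p values of 0.579 and 0.583 from limma. PPM1D, the phosphatase that switches off the damage kinases and p53, went from 6.97 ± 0.918 to 6.03 ± 1.25 TPM (SD, n = 3 each) with overlapping groups. CCNG1, the cyclin G1 that recruits a phosphatase to MDM2, was the one that fell. It measured 81.7, 77.2 and 70.5 TPM across the siNC libraries against 56.7, 58.3 and 51.6 TPM across the siBCAT1 libraries, without overlap, a log2 fold change of -0.45 (SE 0.08, limma adjusted p = 0.00695).

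The genes of cell cycle arrest and growth control held the 2 largest falls among the members tested on the log2(TPM + 1) scale. Of these 9 genes, 5 (55.6%) were called lower, against 10.4% of all genes tested. None of the 9 was called higher by limma, against 16.7% of all genes tested, and none had an unadjusted p under 0.05 in that direction. CDKN1A (ENSG00000124762, chromosome 6, 36676460 to 36687339 in GRCh38) encodes p21, the inhibitor of cyclin-dependent kinases through which p53 halts the cell cycle. It measured 33.9, 21.9 and 34.0 TPM across the siNC libraries against 7.23, 6.43 and 7.93 TPM across the siBCAT1 libraries. Even the lowest siNC library stood well above every siBCAT1 library, and the mean fell to 24.1% of that in siNC cells. The log2 fold change was -1.89 (SE 0.18, limma adjusted p = 0.000662). CDKN1B (ENSG00000111276, chromosome 12, 12715058 to 12722371), which encodes the related inhibitor p27 and is better known as a target of FOXO factors than of p53, measured 49.2, 41.1 and 49.7 TPM across the siNC libraries against 18.3, 15.2 and 18.9 TPM across the siBCAT1 libraries. Its groups did not overlap either, with a log2 fold change of -1.37 (SE 0.11, limma adjusted p = 0.000418). A log2 fold change of -1 or lower with an adjusted p under 0.05 was met by 1.57% of all genes tested, and by both of these genes and TP53I3 among the members. TP53INP1 met it too, but it passed the filter on low values only through the siNC libraries.

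The other falls of this group were smaller. PLK2, a polo-like kinase induced by stress, measured 46.2, 61.2 and 33.5 TPM across the siNC libraries against 17.96, 29.2 and 23.6 TPM across the siBCAT1 libraries. The 2 groups did not overlap but spread widely, and the log2 fold change of -0.95 (SE 0.24, limma adjusted p = 0.0259) was no longer called without siNC replicate 1, siNC replicate 2, siBCAT1 replicate 1 or siBCAT1 replicate 3 (adjusted p up to 0.0993). GADD45B, which binds the stress kinase MTK1 and is induced early by many stimuli, fell from 73.5 ± 2.28 to 50.8 ± 5.71 TPM (SD, n = 3 each; log2 fold change -0.53, limma adjusted p = 0.00542). BTG1, an antiproliferative partner of the CCR4-NOT deadenylase, fell from 25.7 ± 2.51 to 17.8 ± 1.98 TPM (SD, n = 3 each; log2 fold change -0.50, limma adjusted p = 0.016), and its adjusted p was 0.0584 without siNC replicate 3 and 0.0522 without siBCAT1 replicate 2.

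The near relatives of these genes did not pass the test. BTG2, the family member most often cited as a p53 target, had a mean of 3.39 TPM in both groups. GADD45A, the first-described damage-inducible relative of GADD45B and the most abundant of the 31 genes at 104 TPM over the 6 libraries, went from 105 ± 4.96 to 103 ± 8.35 TPM (SD, n = 3 each; log2 fold change -0.03, standard error 0.08, limma adjusted p = 0.822). PLK3 went from 8.34 ± 1.62 to 10.6 ± 1.48 TPM (SD, n = 3 each; log2 fold change 0.32, limma adjusted p = 0.164). SERTAD1, a regulator of CDK4 and of E2F activity, had groups that did not overlap, lower with siBCAT1, at 5.10 ± 0.944 and 3.41 ± 0.673 TPM (SD, n = 3 each), with an adjusted p of 0.0946 from limma. When the replicate number was added to the model as a block, PLK3 was called higher and SERTAD1 lower. Whether BTG1 differs from BTG2, or GADD45B from GADD45A, in its response was not tested.

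**Figure D2:**
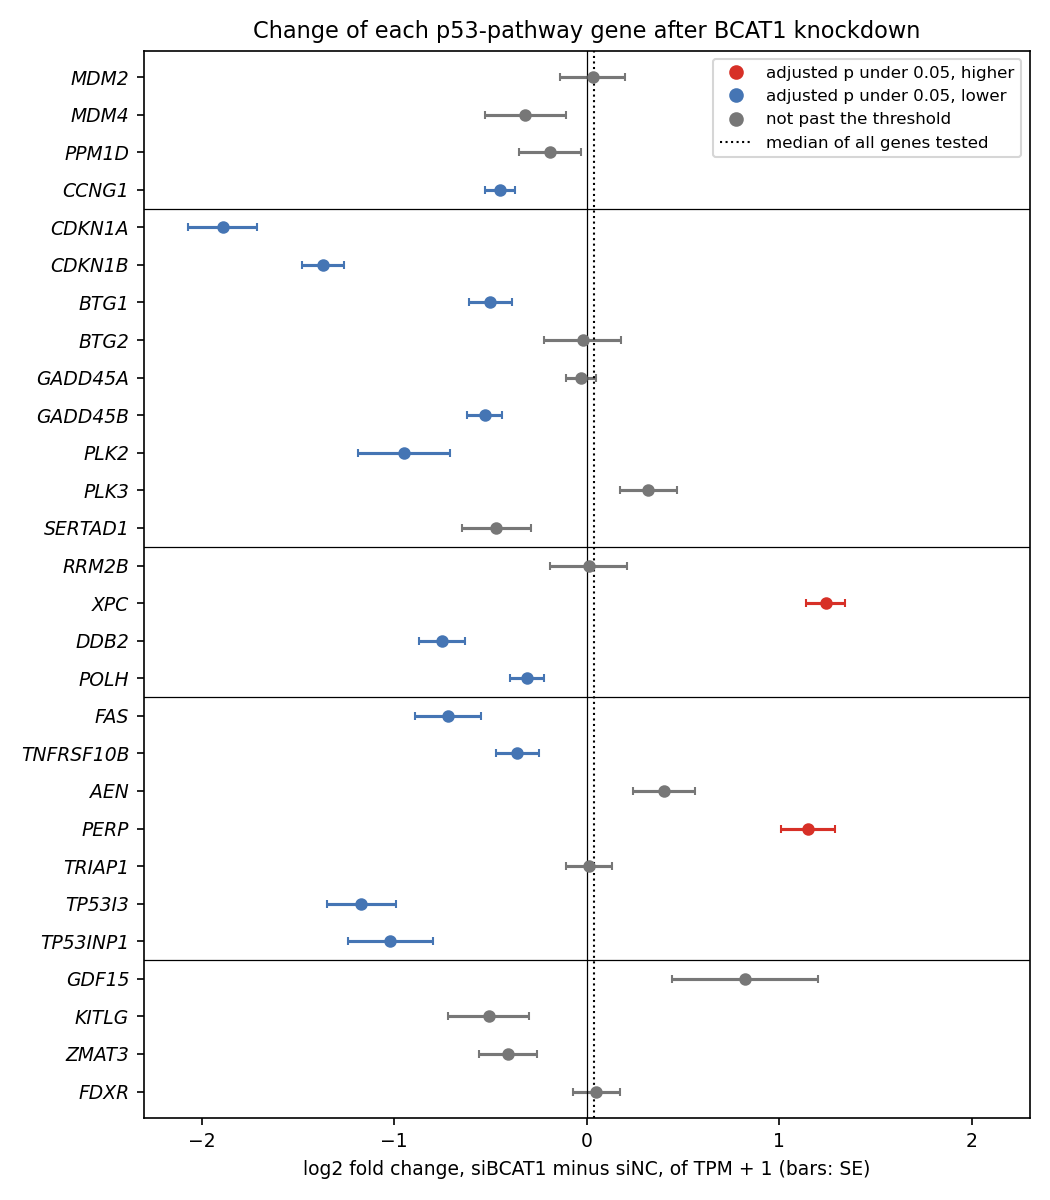
Log2 fold change (siBCAT1 minus siNC, of TPM + 1) of the 28 tested p53-pathway genes with standard errors as bars, ordered by role; red and blue mark an adjusted p under 0.05 and the dotted line the median of all genes tested, 0.04. Most blue points lie in the groups of cell cycle arrest and cell death, with CDKN1A furthest left at -1.89, and XPC (1.24) and PERP (1.15) are the red points on the right.

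The genes of DNA repair and nucleotide supply split. XPC (ENSG00000154767, chromosome 3, 14145147 to 14178783), which recognizes DNA lesions at the start of nucleotide excision repair, measured 5.99, 6.68 and 5.39 TPM across the siNC libraries against 16.1, 14.95 and 15.5 TPM across the siBCAT1 libraries. The groups were tight and far apart, a rise to 257% of the siNC mean, with a log2 fold change of 1.24 (SE 0.10, limma adjusted p = 0.000418). DDB2 (ENSG00000134574, chromosome 11, 47214465 to 47239240), which hands ultraviolet lesions to XPC in the same repair path, measured 20.4, 18.8 and 17.6 TPM across the siNC libraries against 12.1, 9.30 and 11.3 TPM across the siBCAT1 libraries. Thus the lesion-binding factors moved in opposite directions, DDB2 with a log2 fold change of -0.75 (SE 0.12, limma adjusted p = 0.00399). POLH, the polymerase that copies past ultraviolet damage, fell from 15.8 ± 1.11 to 12.6 ± 0.582 TPM (SD, n = 3 each; limma adjusted p = 0.0425), a call that was lost without siNC replicate 1 or 3 or without any siBCAT1 replicate (adjusted p up to 0.134). RRM2B, the p53-inducible subunit of ribonucleotide reductase, measured 7.73, 8.47 and 6.31 TPM across the siNC libraries and 7.10, 10.3 and 5.72 TPM with siBCAT1 (limma adjusted p = 0.979), and its sign turned with rescaling by median ratios or quantiles and with the GC content and length correction.

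XPC and POLH share annotated exon bases with genes on the opposite strand, and the library kit keeps strand but the counting setting is not given in the sources used here. LSM3, which overlaps XPC, went from 20.2 ± 1.36 to 24.9 ± 0.467 TPM (SD, n = 3 each), and the antisense gene AC093495.1 from 2.19 ± 0.463 to 4.22 ± 1.82 TPM (SD, n = 3 each). GTPBP2, which overlaps POLH, went from 69.2 ± 8.95 to 83.7 ± 11.1 TPM (SD, n = 3 each). Likewise RHOBTB2 overlaps TNFRSF10B (from 7.77 ± 1.49 to 4.14 ± 0.362 TPM; SD, n = 3 each), FAM228B overlaps TP53I3 (from 2.16 ± 0.488 to 1.84 ± 0.491 TPM) and CPM overlaps MDM2 (from 7.14 ± 0.296 to 10.9 ± 1.5 TPM). If strand was not used in counting, reads of these pairs cannot be told apart. MDM2 also shares bases on its own strand with the processed pseudogene AC025423.2, at 12.5 ± 4.0 and 10.2 ± 0.654 TPM, so its level is uncertain.

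DDB2 also carries a pair of p53 elements close to an annotated start. The p53 consensus decamer was searched in RefSeq windows (GRCh38.p14) from 250 bases before to 50 bases after each annotated start, and being its own reverse complement it covers both strands. Of the 31 members, 26 matched, with 36 windows, of which 5 (13.9%) held the decamer, against 6.63% of 35116 windows in all. A pair of decamers at most 13 bases apart was found in 1 member window, that of DDB2, and in 10 windows in all. The windows are shown on the transcript strand with each decamer in capitals.
DDB2, chr11:47214975-47215003, plus strand: gtttGAACAAGCCCtGGGCATGTTTggcg
FAS, chr10:88991299-88991328, plus strand: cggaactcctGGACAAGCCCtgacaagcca
AEN, chr15:88621296-88621325, plus strand: agtcggagccGGGCTTGCCCgggcatgtgg
PLK2, chr5:58460199-58460228, minus strand: tggcgggacaAGACTTGCTTcccggccacg
FDXR, chr17:74872986-74873015, minus strand: gggcaggagcGGGCTTGCCCtgcggagcag
Of these 5 genes, DDB2, FAS and PLK2 fell, and AEN and FDXR did not pass the test. Of all tested members 42.9% were called lower, and of all genes tested 10.4%. The calls of FAS and PLK2 were each lost in 4 of the fits with 1 library left out. Whether the decamer goes with a fall was not tested. A match describes the letters and not binding, and elements outside these windows were not searched.

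Among the genes of cell death and survival, 4 of the 7 tested fell and 1 rose, against 10.4% and 16.7% of all genes tested, and the 4 include TP53INP1. TP53I3 (ENSG00000115129, chromosome 2, 24077433 to 24085861), a quinone oxidoreductase tied to oxidative stress in p53-driven death, measured 15.3, 13.7 and 16.9 TPM across the siNC libraries against 4.58, 7.74 and 6.69 TPM across the siBCAT1 libraries. Every siNC library stood above every siBCAT1 library, with a log2 fold change of -1.17 (SE 0.18, limma adjusted p = 0.0037). TP53INP1, a stress protein that acts in p53 activation and autophagy, was scarce, at 1.98, 1.36 and 1.72 TPM across the siNC libraries against 0.47, 0.30 and 0.19 TPM across the siBCAT1 libraries. It lies just inside the filter, with a mean of 1.00 TPM that it reached through the siNC libraries, and its log2 fold change of -1.02 (limma adjusted p = 0.0151) became -2.13 with a pseudocount of 0.1, below the -2.02 of CDKN1A on that scale.

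The death receptors fell by less. FAS, the receptor of the FAS ligand, measured 4.78, 3.46 and 3.88 TPM across the siNC libraries against 1.91, 2.46 and 1.79 TPM across the siBCAT1 libraries, a log2 fold change of -0.72 (SE 0.17, limma adjusted p = 0.0198). Its groups did not overlap, and the call was lost without siNC replicate 1 or 3 and without siBCAT1 replicate 1 or 3 (adjusted p up to 0.0614). TNFRSF10B, the TRAIL receptor DR5, was abundant, at 108, 97.0 and 94.9 TPM across the siNC libraries against 91.5, 73.4 and 69.4 TPM across the siBCAT1 libraries. It stood at the edge of the threshold (log2 fold change -0.36, limma adjusted p = 0.0498) and was lost when any library other than siBCAT1 replicate 1 was left out (adjusted p up to 0.165). FAS shares annotated exon bases with ACTA2 on the opposite strand, which went from 155 ± 22.1 to 183 ± 37.7 TPM (SD, n = 3 each), so FAS too depends on how strand was counted.

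PERP (ENSG00000112378, chromosome 6, 138088505 to 138107511), a membrane protein that serves in desmosomes as well as in p53-driven apoptosis, went against the others. It measured 4.13, 6.25 and 5.40 TPM across the siNC libraries against 12.1, 13.5 and 12.7 TPM across the siBCAT1 libraries. The groups did not overlap, and the log2 fold change was 1.15 (SE 0.14, limma adjusted p = 0.00187). AEN, an exonuclease of apoptotic DNA breakdown, went from 23.5 ± 5.95 to 30.7 ± 1.15 TPM (SD, n = 3 each), with overlapping groups, a log2 fold change of 0.40 and a limma adjusted p of 0.112. Without siNC replicate 2 the change was 0.58 (limma adjusted p = 0.0111), and without siNC replicate 3 it was 0.24 (limma adjusted p = 0.275). TRIAP1, which helps cells survive p53 activation, was at 28.6 ± 4.64 and 28.7 ± 2.48 TPM (SD, n = 3 each), and its sign turned when the libraries were rescaled by median ratios or by quantiles.

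Low members were left untested. PHLDA3, a brake on AKT, was just outside the filter with a mean of 0.672 TPM, and measured 0.86, 0.76 and 1.31 TPM across the siNC libraries against 0.12, 0.72 and 0.26 TPM across the siBCAT1 libraries. The groups did not overlap, and without the filter on low values its log2 fold change was -0.55 with an adjusted p of 0.2 from limma. EDA2R, a receptor of ectodysplasin, and SPATA18, a factor of mitochondrial quality control, were listed at 0 in all 6 libraries.

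The secreted factors, the RNA-binding protein and the metabolic enzyme of the set were not called. None of these 4 passed limma's adjusted threshold, which 27.1% of all genes tested passed, and 2, KITLG and ZMAT3, had an unadjusted p under 0.05, both lower. GDF15, a secreted stress cytokine, measured 10.7, 4.39 and 13.8 TPM across the siNC libraries against 17.9, 11.6 and 20.5 TPM across the siBCAT1 libraries. The groups overlapped, and the log2 fold change of 0.82 had a standard error of 0.38 (limma adjusted p = 0.155). That model left out the replicate number. With the replicate number added as a block, GDF15 was called higher and KITLG lower. It was 0.39 without siNC replicate 2 and 1.12 without siNC replicate 3. KITLG, the ligand of the receptor KIT, went from 7.52 ± 2.27 to 4.91 ± 1.06 TPM (SD, n = 3 each; limma adjusted p = 0.122). ZMAT3, a splicing regulator and a robust p53 target, was lower in every siBCAT1 library, at 4.58 ± 0.825 and 3.16 ± 0.0351 TPM (SD, n = 3 each; log2 fold change -0.41, limma adjusted p = 0.0825). It was called lower with the GC content and length correction (-0.48, limma adjusted p = 0.0321) and without siNC replicate 3 (-0.53, limma adjusted p = 0.048). FDXR, the ferredoxin reductase of mitochondria, was at 6.19 ± 0.315 and 6.47 ± 0.723 TPM (SD, n = 3 each; log2 fold change 0.05, standard error 0.12).

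The annotated 3′ UTRs were searched for the 7-base words that pair with the seeds of the study's BCAT1 siRNAs, since each group received a different small RNA. The control siRNA was not covered, because its sequence is not given in the sources used here. Of the pair of BCAT1 siRNAs in the study's methods, siBCAT1-2 is also given there under the plain name siBCAT1, the name these libraries carry, and the labels themselves do not state a sequence. Its word, TTGAGCA, was found on the transcript strand in 8 of the 28 tested members (28.6%) and in 11.4% of 11564 tested genes with a 3′ UTR. Of the 12 members that fell, FAS and TP53INP1 held it, and the other 6 with it were not called. The median 3′ UTR was 2446 bases long in the members with the word, 1030.5 bases in those without it and 1067 bases in all genes, and longer UTRs hold any word more often. The median log2 fold change was -0.30 in the members with TTGAGCA and -0.34 in those without it, and 0.01 and 0.04 in all genes with and without it. The site of FAS, which fell, and those of 3 members that were not called are shown here in GRCh38, 5′ to 3′ on the transcript strand with the word in capitals.
FAS, chr10:89015159-89015181, plus strand: aaagcattTTGAGCAggagagta
KITLG, chr12:88495221-88495243, minus strand: cagtttgcTTGAGCAtatgaaaa
ZMAT3, chr3:179022583-179022605, minus strand: gcttagttTTGAGCAatttaggg
BTG2, chr1:203309415-203309437, plus strand: ctggactgTTGAGCAggcctgtc
The word of siBCAT1-1, AGACAAT, was found in 5 members (17.9%), against 8.97% of all genes. These were CDKN1B, BTG1, GADD45B and PLK2, which fell, and MDM4, which was not called. Among all tested members 42.9% were called lower, and among all genes tested 10.4%. With 1 library left out, the call was lost in 2 fits for BTG1 and in 4 for PLK2. The site of CDKN1B is shown as an example.
CDKN1B, chr12:12722158-12722180, plus strand: tttaatctAGACAATatacaagc
The median log2 fold change was -0.53 in the members with AGACAAT and -0.19 in those without it, and -0.09 and 0.05 in all genes. The median 3′ UTR was 1344 bases long in the members with AGACAAT and 1335 bases in those without it. CDKN1A, TP53I3, DDB2, CCNG1, POLH and TNFRSF10B fell with neither 7-base word in the annotated 3′ UTR. CDKN1A did hold TGAGCA, the 6-base core of the siBCAT1-2 word, as did 39.3% of the tested members and 33% of all genes. The words were looked for after the values were seen, and the part of pairing in any of these falls was not tested.

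A list of 24 genes of the p53 family and its upstream regulators was read beside the members. Of these, 22 were tested, 5 were higher (22.7%) and 3 lower (13.6%), close to the 16.7% and 10.4% of all genes tested. The median log2 fold change of these 22 was -0.08. The ubiquitin ligases that act on p53 beside MDM2 split, with RCHY1 higher (log2 fold change 0.71, adjusted p = 0.00694) and COP1 lower (-0.32, adjusted p = 0.0489). EP300, the acetyltransferase and coactivator of p53, fell by 0.56 on the log2 scale (adjusted p = 0.0192). The ribosomal proteins that bind MDM2 also split, RPL11 being higher (0.57, adjusted p = 0.000165) and RPL5 lower (-0.18, adjusted p = 0.0103), though both have many pseudogene copies and their values are uncertain. PRKDC, the DNA-dependent protein kinase, was higher (0.40, adjusted p = 0.00253), all adjusted p values from limma over all genes tested. The kinases ATM and ATR, which signal damage to p53, had log2 fold changes of -0.12 and 0.02 and did not pass the test. Without siNC replicate 1 or without siNC replicate 2 only 1 of the lower calls was left. The calls of COP1 and EP300 were lost when any of several libraries was left out, with adjusted p up to 0.145 and 0.0838.

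A further list of 41 p53 target genes was read beside the members. Of its 32 tested genes, 4 were higher (12.5%) and 7 lower (21.9%), against 16.7% and 10.4% of all genes tested, around a median of -0.05 on the log2 scale. PMAIP1, which encodes the BH3-only death protein NOXA, rose most, from 26.8 ± 1.40 to 50.1 ± 5.72 TPM (SD, n = 3 each; log2 fold change 0.87, limma adjusted p = 0.00124). The sestrins, which restrain mTORC1 under stress, moved apart, SESN2 higher (0.69, adjusted p = 0.0238) and SESN1 lower (-0.66, adjusted p = 0.0239). The TRAIL receptor TNFRSF10A (0.45, adjusted p = 0.042) and the copper chaperone SCO2 (0.25, adjusted p = 0.0429) were the other higher genes. RPS27L, a ribosomal protein relative, fell by 0.53 on the log2 scale (adjusted p = 0.00987), and NINJ1 (-0.44, adjusted p = 0.0212) and RAP2B (-0.44, adjusted p = 0.0237) were also lower, all from limma. BAX and BBC3, the best-known apoptotic targets, had log2 fold changes of 0.20 and 0.51 with adjusted p values of 0.102 and 0.374. Most of these calls were close to the threshold. Without siNC replicate 1, 1 gene was called higher and 0 lower by limma, without siNC replicate 3 and without siBCAT1 replicate 2 it was 2 and 2, without siBCAT1 replicate 1 it was 1 and 2, and without siBCAT1 replicate 3 it was 1 and 1, whereas PMAIP1 stayed past the threshold with each library left out.

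Genes that p53 lowers indirectly, through p21 and the DREAM repressor complex, were looked at beside the fall of CDKN1A. All 20 were tested, and 8 (40.0%) were higher in siBCAT1 cells, against 16.7% of all genes, with a median log2 fold change of 0.12. None was called lower by limma, and 1, AURKA, had an unadjusted p under 0.05 in that direction, while under quantile normalization 3 were called lower. E2F1, the transcription factor of S-phase entry, rose from 22.7 ± 4.51 to 45.7 ± 3.72 TPM (SD, n = 3 each; log2 fold change 0.99, limma adjusted p = 0.00292). BIRC5, which encodes survivin, rose by 0.66 (adjusted p = 0.0019), MYBL2, the B-Myb activator of mitotic genes, by 0.61 (adjusted p = 0.00127), and PRC1, an organizer of the mitotic spindle midzone, by 0.47 (adjusted p = 0.00369), all on the log2 scale and from limma. The mitotic regulators CCNB1, CDK1, PLK1 and MKI67 had log2 fold changes between -0.10 and -0.03 and did not pass the test. Without siBCAT1 replicate 1 the count of higher genes was 5. This list was chosen with earlier results of these data known, and a link of its changes to p21 or DREAM was not tested.

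**Figure D3:**
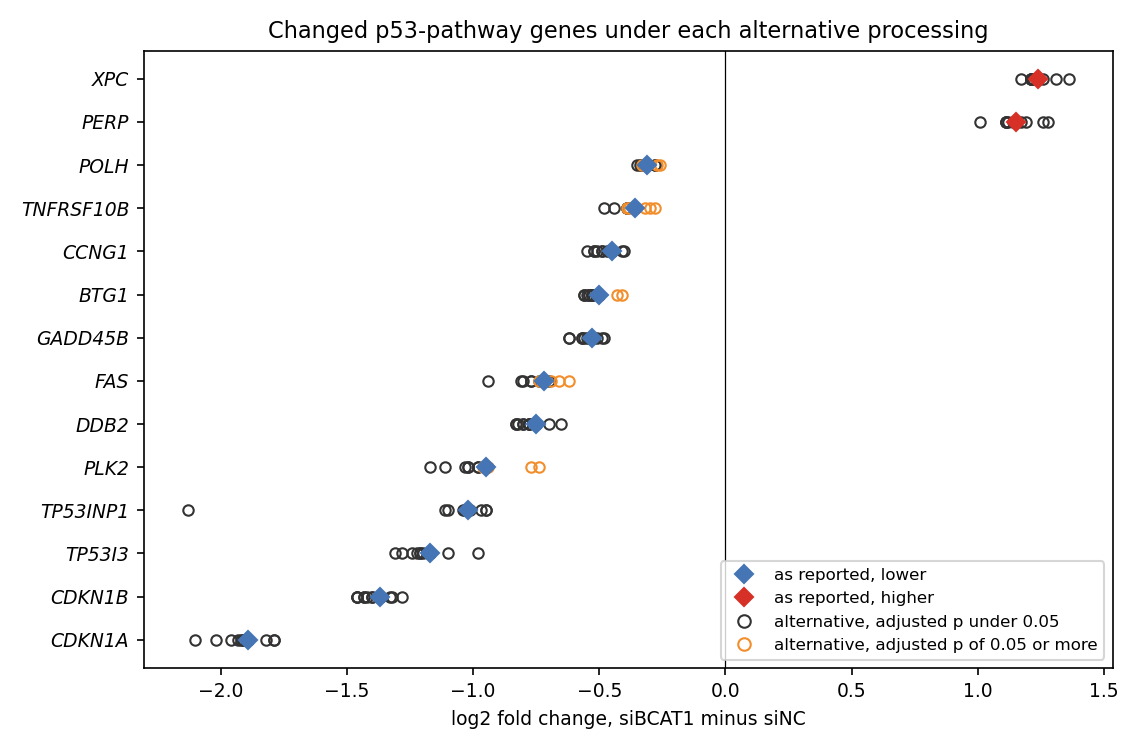
Log2 fold change (siBCAT1 minus siNC) of the 14 called p53-pathway genes as reported (diamonds) and under up to 15 alternative settings (circles), with orange circles where the adjusted p was 0.05 or more. CDKN1A, CDKN1B, TP53I3, TP53INP1, DDB2, GADD45B, CCNG1, XPC and PERP have no orange circle, and no circle crosses 0.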

How the data were processed

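The authors prepared stranded mRNA libraries of 67R cells (3 siNC, 3 siBCAT1) and processed reads with fastp, HISAT2 and StringTie on GRCh38, per the labels; versions and annotation are not given in the sources used here. They deposited 1 value per gene and library, read as TPM because each library sums to 992512 to 995593 beside a gene length. Groups came from sample titles.

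Values were transformed to log2(TPM + 1). Genes averaging 1 TPM or more over the 6 libraries (14286) entered a linear model in limma 3.58.1 (R 4.3.3) with a variance trend, and p-values were two-sided, adjusted by the Benjamini-Hochberg procedure and called under 0.05. On simulated data with 200 of 14286 genes changed by 1 on the log2 scale, 71.5% were recovered, 0 in the wrong direction, and 4 unchanged genes were called. In the data themselves 27.1% of genes were called, most with smaller changes, so this rate need not apply to them. With 3 against 3, an exact permutation test cannot go below 0.1.

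All 31 members are named; of the other lists, the counts and up to 4 called genes in each direction (1 gene of the upstream list is not reported here), with ATM, ATR, BAX, BBC3, AURKA, CCNB1, CDK1, PLK1 and MKI67 named after their values were seen. The members and lists were chosen with earlier results of these data known. 3′ UTRs came from GENCODE 29, 1 transcript per gene, the principal isoform first, and gene coordinates from the same release; promoters came from RefSeq (GRCh38.p14). Python 3.11.15, pandas 2.3.3 and matplotlib 3.10.9 were used.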

Additional observations from a re-analysis of the deposited data

How the results depend on the processing

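The alternatives were dropping the filter, raising it to a mean of 5 TPM, a pseudocount of 0.1, median-ratio scaling, quantile normalization, correcting for GC content and length by loess, the replicate number as a block, both of these together, limma without trend, and each library left out in turn, 15 in all. Of the 14 called p53-pathway genes, 9 kept direction and call under every alternative run. The 9 include TP53INP1, which passed the filter only through the siNC libraries and was not tested at a mean of 5 TPM. BTG1, PLK2, POLH, FAS and TNFRSF10B lost the call under at least 1 of them and kept their direction. BCAT1 lay between -2.28 and -2.03 and the members' median between -0.38 and -0.31. The count of lower members lay between 8 and 15. Without the filter 2567 genes were called, and 2318 to 3706 with a library left out. Depth is unknown, which limits the low members most.

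The replicate numbers were not taken to pair the libraries: deviations of same-numbered libraries correlated by 0.0844, 0.102 and 0.124, and every library correlated best with its own number. With the replicate block, 4568 genes were called, 4 members were higher, alone and with the GC content and length correction, with GDF15 and PLK3 added, and 5 upstream regulators were lower. SERTAD1 and KITLG were called lower under the block.

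For upstream regulators, 1 was lower without the filter and with limma without trend, and 1 to 2 with a library left out. For other p53 targets, 1 was higher and 1 lower without the filter, 2 higher under either scaling, 2 higher and 4 lower with limma without trend, and 1 to 4 higher and 0 to 5 lower with a library left out. For the genes repressed through p21 and DREAM, 5 to 9 were higher with a library left out, and 3 were lower under quantile normalization and 1 with the GC content and length correction, with or without the block. The cause of these shifts was not tested, and leaving out libraries or adding genes also changes how much is tested.

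Signs turned in members that were not called, none past the threshold. MDM2 was -0.0035 under median-ratio scaling, -0.0037 under quantile normalization, -0.06 with the GC content and length correction with or without the block, and -0.13 to 0.15 with a library left out. RRM2B was -0.02, -0.0081, -0.06 and -0.2 to 0.18, and TRIAP1 -0.019, -0.07, -0.08 and -0.07 to 0.14 in the same order. BTG2 was 0.0037 under quantile normalization and -0.14 to 0.16 with a library left out, GADD45A -0.08 to 0.031 and FDXR -0.014 to 0.13.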
